A study of Mus musculus with 18 samples.

Results

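The genes described here handle ATP and adenosine outside the cell, and they were followed in regulatory T cells (Tregs) with and without CD25. The 10 members were chosen by name as genes of this pathway, out of 50600 genes in the count table. The choice was made with earlier results of these data known, and Slc17a9 was included for its fall in splenic CD25 KO Tregs. For Slc17a9, the splenic values that led to its choice, and every comparison that reuses them, are therefore given as descriptions with no test. RNA-seq was done on FACS-purified Foxp3+ Tregs from 18 C57BL/6 mice, each library from 1 mouse. Thymic Tregs came from 5 CD25 KO mice, CD25flox with a Foxp3-YFP/Cre allele, and from 5 age-matched Foxp3/RFP reporter mice with intact CD25 (WT), all 3 to 4 weeks old. The thymic CD25 KO mice had been "cured" as newborns with an intravenous injection of WT spleen cells, a treatment the labels give for the CD25 KO mice alone, so the transfer, the Cre allele and the loss of CD25 cannot be told apart in thymus. Splenic Tregs came from 4 CD25 KO mice, CD25flox with Foxp3eGFP-Cre-ERT2 and the R26Y reporter, and from 4 CD25 WT reporter controls. Both splenic groups received tamoxifen at 7 to 10 weeks of age, and their Tregs were sorted 10 to 14 days later. In both models Cre is expressed from the Foxp3 locus, so deletion was restricted to Tregs, from their development onward in thymus and only after tamoxifen in spleen.

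ATP released by stressed, dying or activated cells acts as a danger signal through P2X and P2Y receptors. Tregs carry the ectoenzymes CD39 and CD73, which together turn ATP into adenosine, and adenosine restrains T cells through a receptor that raises cAMP. Adenosine is removed by uptake through nucleoside transporters, by deamination to inosine and by phosphorylation to AMP. In mouse T cells the P2X7 receptor can also be activated by extracellular NAD, and its opening can lead to cell death.

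In thymus, Entpd1 and Slc17a9 were lower without CD25, by 2.22-fold and 2.41-fold, and the other 8 genes did not pass the test. Of all genes tested in thymus, 2.99% passed as lower. In spleen, Adora2a and Adk were slightly higher without CD25, by 1.22-fold and 1.31-fold, and Ada was 1.48-fold lower, whereas WT and CD25 KO mice overlapped for Entpd1 and Nt5e. Of all genes tested in spleen, 5.90% passed as higher and 3.55% as lower. The thymic result of Entpd1 and the splenic result of Ada each failed to pass in most fits that left out 1 mouse. The difference between the splenic and the thymic change passed its own test for Entpd1 and Adora2a. Between the WT groups, Entpd1 was 5.09-fold higher in splenic than in thymic Tregs. A gene was called when its adjusted p was below 0.01 in the quasi-likelihood test of edgeR, adjusted by Benjamini-Hochberg over all genes tested. Levels are CPM, the counts of a gene relative to the total of its library after scaling.

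The libraries held 17239774 to 32639570 counts each, and every splenic library was deeper than every thymic one. Replicate libraries of a group were correlated at 0.972 to 0.994. Il2ra, the gene encoding CD25, was at 524 to 682 CPM in thymic WT mice and at 95.9 to 280 CPM in thymic CD25 KO mice. In spleen it was at 488 to 539 CPM in WT mice and at 168 to 208 CPM in CD25 KO mice. The 2 genotypes were fully apart in each tissue, but counts over the whole gene include exons outside the excised one, so the remaining level does not measure undeleted cells. Foxp3, the lineage factor of Tregs, was detected in all groups, with means of 503 and 297 CPM in thymic WT and CD25 KO mice and of 330 and 226 CPM in spleen. Bulk libraries cannot tell fewer cells of a type apart from less RNA per cell, here and in every result that follows.

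To compare genes with each other, CPM was divided by the exonic length of each gene in kilobases. In thymic WT Tregs the highest length-scaled levels were those of P2rx7 at 20.9 ± 1.42 CPM per kb (SD, n = 5), Nt5e at 19.05 ± 2.64 and Dpp4 at 16.01 ± 1.04, and these neighbours overlapped between mice. Slc17a9, Adora2a, Slc29a1, P2rx4, Adk and Ada followed between 8.51 and 3.58 CPM per kb. Entpd1 was lowest of the 10 in thymic WT Tregs, at 1.95 ± 0.33 CPM per kb, with no mouse overlapping Ada, the gene above it. In splenic WT Tregs, Nt5e at 45.2 ± 4.86 CPM per kb (SD, n = 4) and P2rx7 at 43.4 ± 3.09 led and overlapped, and Dpp4 came next at 20.8 ± 0.87. Entpd1 ranked 7 of 10 there at 9.90 ± 0.33 CPM per kb, overlapping Slc29a1 above it and not P2rx4 below it. Ada was lowest in spleen at 3.02 ± 0.49 CPM per kb and overlapped Adk at 3.55 ± 0.22.

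**Figure D1:**
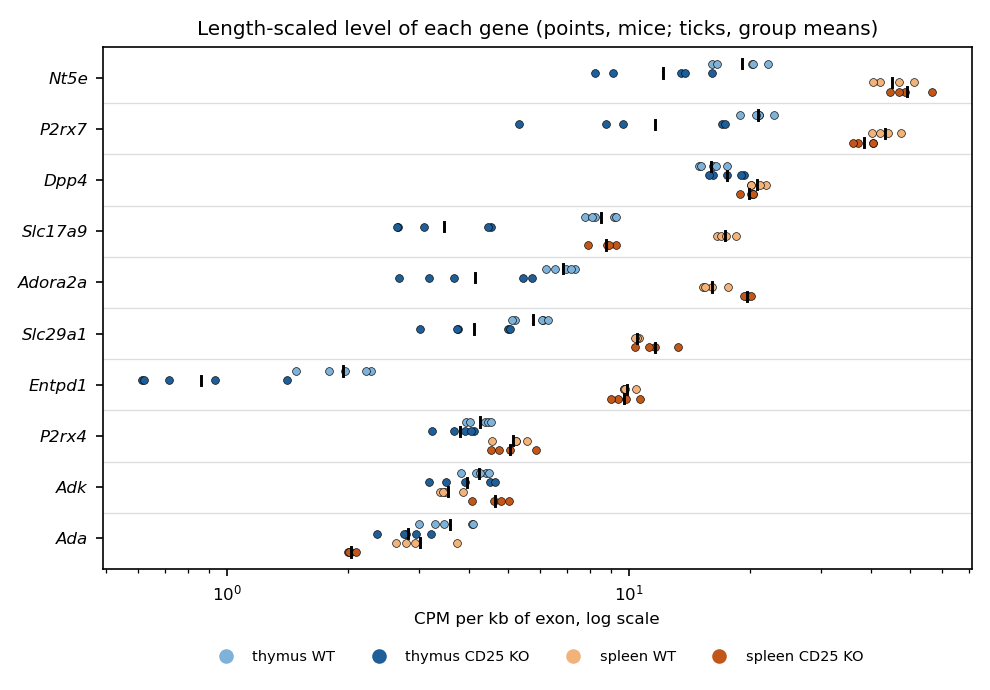
Length-scaled level of each gene (CPM per kb of exon, log axis) in every mouse, with 5 mice per thymic group and 4 per splenic group and ticks at the group means. Nt5e and P2rx7 lead in splenic Tregs, and Entpd1 runs from the lowest level in thymic WT Tregs (1.95 CPM per kb) to 9.90 CPM per kb in splenic WT Tregs.

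Entpd1 (ENSMUSG00000048120, GRCm38 chr19:40612366-40741602, plus strand) encodes CD39, which hydrolyses ATP and ADP to AMP. The 5 thymic WT mice had 12.7, 10.97, 8.26, 12.3 and 9.99 CPM, and the 5 thymic CD25 KO mice had 4.00, 7.88, 3.43, 5.23 and 3.47 CPM. All CD25 KO mice lay below all WT mice, although CD25 KO mouse 2 came close to the lowest WT mouse. This gave a log2 fold change of -1.15 ± 0.22 (SE), with an adjusted p of 0.00563. The 4 splenic WT mice had 58.0, 54.1, 54.2 and 54.6 CPM, and the 4 splenic CD25 KO mice had 59.4, 52.2, 50.2 and 54.8 CPM. The splenic groups overlapped fully, with a log2 fold change of -0.03 ± 0.06 and an adjusted p of 0.806. The change in spleen minus the change in thymus was 1.13 ± 0.23 on the log2 scale, with an adjusted p of 0.00247. The thymic call rests on 63 to 270 counts per mouse and was lost, at adjusted p up to 0.0164, when any of WT mice 1, 2, 4 or 5 or CD25 KO mice 1 or 3 was left out, with the log2 fold change staying between -1.41 and -1.05 over all 10 such fits.

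Nt5e (ENSMUSG00000032420, GRCm38 chr9:88327197-88372092, plus strand) encodes CD73, which converts AMP to adenosine. Thymic WT mice had 174, 174, 138.4, 191 and 142 CPM, and thymic CD25 KO mice had 70.7, 138.3, 78.4, 115 and 119 CPM. CD25 KO mouse 2 reached the lowest WT mouse almost exactly, so the groups were separated by a margin far smaller than the spread within either. The log2 fold change of -0.63 ± 0.17 did not pass the test, with an adjusted p of 0.0219. Splenic WT mice had 440, 404, 362 and 348 CPM, and splenic CD25 KO mice had 383, 488, 417 and 404 CPM. The splenic groups overlapped, with a log2 fold change of 0.12 ± 0.08 and an adjusted p of 0.325. The difference between tissues of 0.78 ± 0.21 on the log2 scale had an adjusted p of 0.0177 and was not called.

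Adora2a (ENSMUSG00000020178, GRCm38 chr10:75316877-75334784, plus strand) encodes an adenosine receptor that raises cAMP in T cells. Thymic WT mice had 22.5, 21.3, 18.996, 21.9 and 20.1 CPM, and thymic CD25 KO mice had 9.75, 17.5, 11.2, 16.7 and 8.19 CPM. All CD25 KO mice were below all WT mice, and CD25 KO mice 2 and 4 stood nearer to the WT mice than the other 3 did. Their log2 fold change was -0.70 ± 0.19 with an adjusted p of 0.0200, which did not pass, although it did without CD25 KO mouse 2 (adjusted p 0.00899). Splenic WT mice had 53.8, 46.8, 49.1 and 47.3 CPM, and splenic CD25 KO mice had 59.9, 60.6, 61.6 and 59.0 CPM. Here all CD25 KO mice were above all WT mice, with a log2 fold change of 0.29 ± 0.06 and an adjusted p of 0.00193. The change in spleen minus the change in thymus was 1.01 ± 0.21 on the log2 scale, with an adjusted p of 0.00260. The splenic call was lost without WT mouse 2 (adjusted p 0.0106) or WT mouse 4 (adjusted p 0.0104) and when all 18 libraries shared 1 estimate of the spread (adjusted p 0.254). Adjusted p values ran from 5.73e-05 to 0.254 over its 16 alternatives, and the log2 fold change ran from 0.26 to 0.35.

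P2rx7 (ENSMUSG00000029468, GRCm38 chr5:122643911-122691432, plus strand) encodes the P2X7 receptor, an ion channel opened by high extracellular ATP. Thymic WT mice had 125.6, 137, 113, 125.7 and 123 CPM, and thymic CD25 KO mice had 57.6, 102, 52.3, 103 and 31.8 CPM. CD25 KO mice 2 and 4 stood well above the other 3, and all 5 were under the WT mice. The log2 fold change of -0.83 ± 0.26 did not pass, with an adjusted p of 0.0363. In spleen the WT mice had 282, 263, 251 and 239 CPM and the CD25 KO mice had 221, 241, 241 and 215 CPM, which overlapped at the edge. The splenic log2 fold change was -0.17 ± 0.06 with an adjusted p of 0.0590, and the difference between tissues of 0.67 ± 0.30 had an adjusted p of 0.124.

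P2rx4 (ENSMUSG00000029470, GRCm38 chr5:122707544-122729738, plus strand) lies 16111 bases downstream of P2rx7 on the same strand and encodes P2X4, an ATP-gated channel that responds to lower ATP concentrations. It had a mean of 29.9 ± 1.92 CPM (SD, n = 5) in thymic WT mice and 26.6 ± 2.49 CPM in thymic CD25 KO mice, with overlap. The splenic WT mean was 36.2 ± 2.98 CPM (SD, n = 4) and the CD25 KO mean 35.5 ± 4.03 CPM, also with overlap. Neither log2 fold change passed the test, at -0.15 ± 0.08 in thymus with an adjusted p of 0.169 and -0.03 ± 0.08 in spleen with an adjusted p of 0.845. The difference between tissues was 0.14 ± 0.12 (adjusted p 0.451).

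Slc17a9 (ENSMUSG00000023393, GRCm38 chr2:180725263-180742280, plus strand) encodes the vesicular nucleotide transporter, which loads ATP into secretory vesicles. Thymic WT mice had 26.4, 29.3, 24.9, 29.7 and 25.9 CPM, and thymic CD25 KO mice had 8.50, 14.5, 9.91, 14.2 and 8.46 CPM. The thymic groups were clearly apart, with the highest CD25 KO mouse well under the lowest WT mouse. The thymic log2 fold change was -1.27 ± 0.16 with an adjusted p of 0.000661. It was called in all 20 alternatives, among them each of the 10 fits that left out 1 mouse, with a log2 fold change between -1.60 and -1.14. Splenic WT mice had 52.8, 54.3, 59.1 and 55.6 CPM, and splenic CD25 KO mice had 28.2, 25.3, 29.7 and 28.5 CPM. The splenic log2 fold change of -0.99 ± 0.06 is the value for which the gene was chosen and is a description. Splenic CD25 KO Tregs stood at about the level of thymic WT Tregs, with means of 28.0 ± 1.86 and 27.2 ± 2.15 CPM.

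Slc29a1 (ENSMUSG00000023942, GRCm38 chr17:45585200-45599606, minus strand) encodes ENT1, an equilibrative transporter that carries adenosine across the plasma membrane. Thymic WT mice had 20.8, 24.5, 24.3, 20.4 and 25.2 CPM, and thymic CD25 KO mice had 15.004, 20.1, 14.98, 20.2 and 12.1 CPM. CD25 KO mice 2 and 4 came up to the lowest WT mouse without crossing it. The log2 fold change of -0.47 ± 0.14 had an adjusted p of 0.0291 and did not pass. The splenic WT mean was 41.9 ± 0.41 CPM and the CD25 KO mean 46.5 ± 4.84 CPM, which overlapped, with a log2 fold change of 0.15 ± 0.07 and an adjusted p of 0.151. The difference between tissues of 0.63 ± 0.16 had an adjusted p of 0.0128.

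Ada (ENSMUSG00000017697, GRCm38 chr2:163726584-163750239, minus strand) encodes adenosine deaminase, which turns adenosine into inosine. Splenic WT mice had 5.27, 5.57, 5.87 and 7.49 CPM, and splenic CD25 KO mice had 4.07, 4.00, 4.02 and 4.18 CPM. All splenic CD25 KO mice lay below all WT mice and very close to each other, while WT mouse 4 stood above the rest. The log2 fold change was -0.57 ± 0.14 with an adjusted p of 0.00823. This is a low gene, with 106 to 190 counts per splenic library, and the call was kept in only 1 of the 8 fits that left out a mouse, that without WT mouse 1. Adjusted p reached 0.0369 without WT mouse 4, where the log2 fold change was -0.45, and 0.0116 after removal of the GC trend. In thymus the WT mice had 6.93, 8.16, 8.17, 6.58 and 6.02 CPM and the CD25 KO mice had 5.90, 5.58, 5.50, 6.44 and 4.73 CPM, which overlapped. The thymic log2 fold change was -0.33 ± 0.12 with an adjusted p of 0.0675, and the difference between tissues of -0.22 ± 0.18 had an adjusted p of 0.411.

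Because CD25 is part of a receptor that activates STAT5, the promoters were searched for TTCNNNGAA, the core of a STAT binding motif, which reads the same on both strands. RefSeq start sites of GRCm38.p6 gave 18 windows of 250 bases before to 50 bases after the start for 8 of the 10 genes, and none for Adora2a and Slc17a9. The motif stood in 1 of the 18 windows, that of Ada, 90 bases before the start, and in 8.30% of all 32851 windows in the table. The 250 bases upstream of Ada (chr2:163750240-163750489, minus strand) are shown as the one match, with the motif in capitals, and those of the first Entpd1 start (chr19:40612116-40612365, plus strand), the gene with the largest difference between tissues, have no match and no capitals.
Ada: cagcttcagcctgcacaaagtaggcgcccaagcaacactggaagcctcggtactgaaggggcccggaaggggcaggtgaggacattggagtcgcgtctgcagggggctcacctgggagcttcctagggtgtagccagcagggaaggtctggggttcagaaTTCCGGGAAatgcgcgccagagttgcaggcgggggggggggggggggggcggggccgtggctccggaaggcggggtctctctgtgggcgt
Entpd1: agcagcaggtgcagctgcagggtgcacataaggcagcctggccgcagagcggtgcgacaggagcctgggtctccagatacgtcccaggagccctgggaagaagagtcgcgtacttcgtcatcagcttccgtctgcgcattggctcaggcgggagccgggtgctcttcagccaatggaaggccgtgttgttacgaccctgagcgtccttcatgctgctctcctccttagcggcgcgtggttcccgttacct
A match is a description of these letters and was not tested as a binding site.

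Adk (ENSMUSG00000039197, GRCm38 chr14:21052574-21448569, plus strand) encodes adenosine kinase, which phosphorylates adenosine to AMP inside the cell. Splenic WT mice had 28.8, 29.7, 32.99 and 29.4 CPM, and splenic CD25 KO mice had 34.7, 42.9, 39.4 and 41.0 CPM. All CD25 KO mice were above all WT mice, with a log2 fold change of 0.39 ± 0.07 and an adjusted p of 0.00136. The call held in all 8 fits without 1 mouse and was lost, at an adjusted p of 0.0180, only when all 18 libraries shared 1 estimate of the spread. In thymus the WT mean was 36.0 ± 2.22 CPM and the CD25 KO mean 33.7 ± 5.39 CPM, which overlapped, and the log2 fold change was -0.08 ± 0.10 with an adjusted p of 0.595. Adk is the most AT-rich of the 10 genes, at 37.5% GC, and after removal of the GC trend its thymic log2 fold change was -0.46, still not called. The difference between tissues of 0.48 ± 0.13 had an adjusted p of 0.0184.

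Dpp4 (ENSMUSG00000035000, GRCm38 chr2:62330073-62412231, minus strand) encodes CD26, a surface peptidase that in humans anchors adenosine deaminase to the membrane. The thymic WT mean was 101 ± 6.57 CPM and the CD25 KO mean 111 ± 10.1 CPM, and the splenic means were 131 ± 5.51 and 125.8 ± 4.54 CPM. The groups overlapped in both tissues, with log2 fold changes of 0.15 ± 0.07 in thymus (adjusted p 0.162) and -0.06 ± 0.05 in spleen (adjusted p 0.454), and a difference between tissues of -0.19 ± 0.09 (adjusted p 0.136). The thymic value changed sign to -0.019 after removal of the GC trend. Dpp4 shares 232 exonic bases with the antisense gene Gm13561 and Slc29a1 shares 275 with the antisense gene Gm17080. Their own means were at most 2.33 and 0.50 CPM in any group, and whether the counting used strand is not given in the sources used here.

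**Figure D2:**
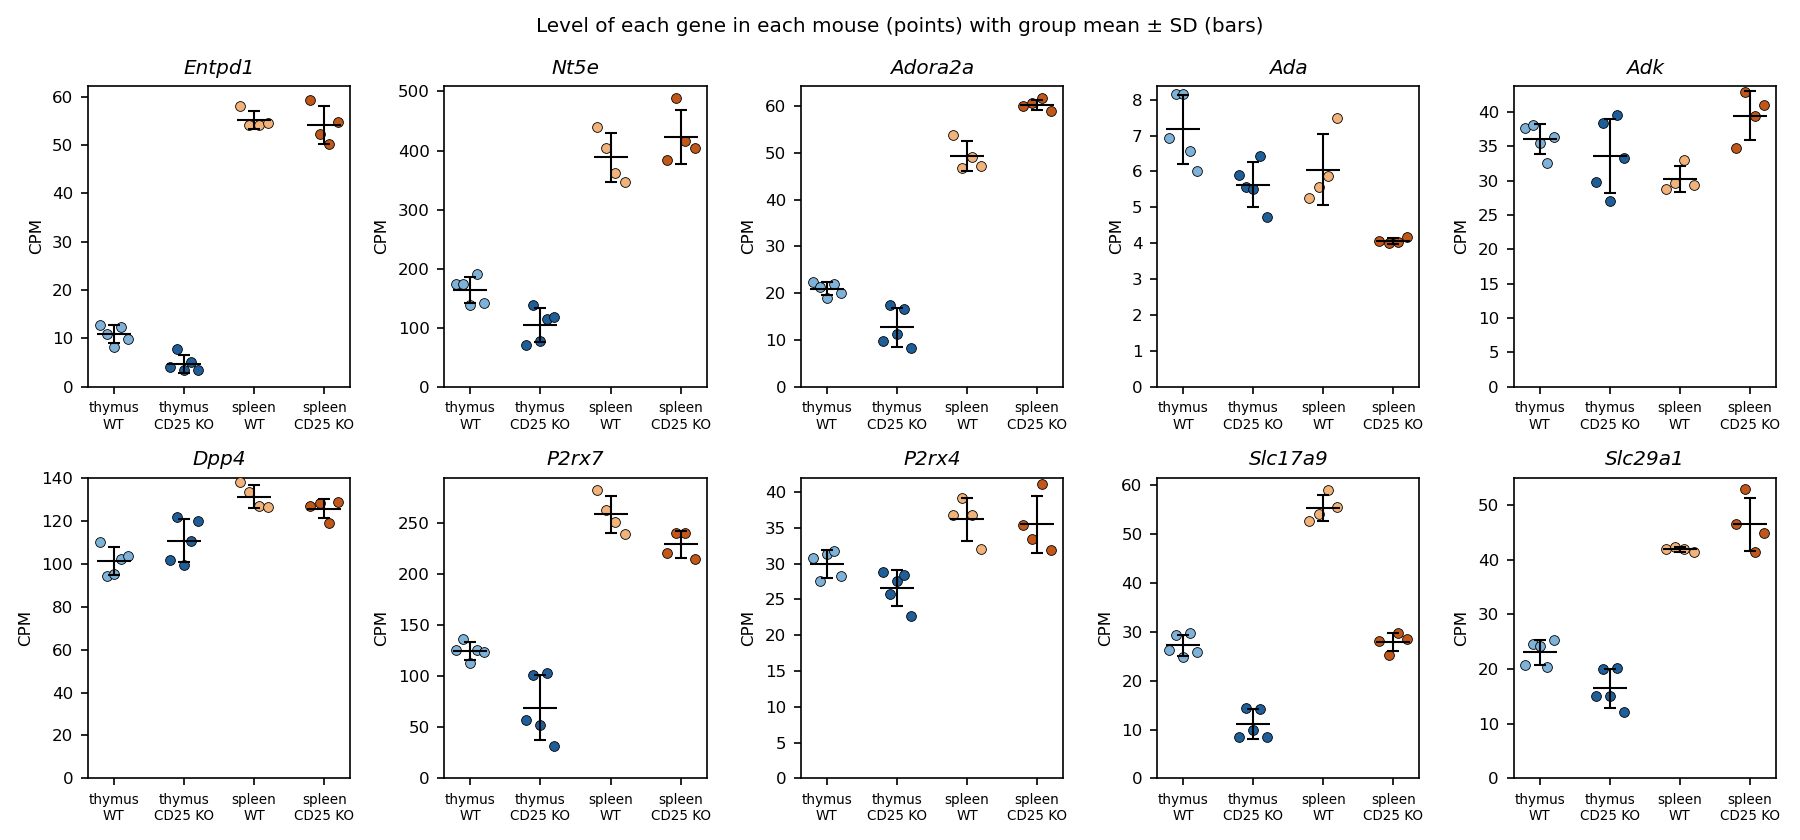
CPM of each gene in every mouse (points) with group mean ± SD (bars), for 5 mice per thymic group and 4 per splenic group. Thymic CD25 KO mice lie below thymic WT mice for Entpd1, Nt5e, Adora2a, P2rx7, Slc17a9 and Slc29a1, and splenic CD25 KO mice lie above splenic WT mice for Adora2a and Adk and below them for Ada and Slc17a9.

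Of the 10 genes, all of which were tested, 2 were called in thymus and both were lower, against 6.16% of the 16986 genes tested called in either direction and 2.99% called lower. Values were below 0 on the log2 scale for 9 of the 10, with a median of -0.55 beside a median of 0.00 over all genes tested. For 6 of them all CD25 KO values were below all WT values, a separation found for 9.17% of all genes tested in thymus. In spleen, 3 of the 9 genes other than Slc17a9 were called, 2 higher and 1 lower, against 9.45% of 17463 genes in either direction, 5.90% higher and 3.55% lower. Their median log2 fold change was -0.03, beside -0.01 over all genes tested. The splenic CD25 KO values were all above the WT values for 2 of these 9 genes, and all below for 1, separations found for 11.2% and 9.19% of all genes. The thymic count depends on the setting, as the 5 genes Entpd1, Nt5e, Adora2a, Slc17a9 and Slc29a1 were called by DESeq2, where 16.3% of all genes were called. At an adjusted p below 0.05, P2rx7 joined them for 6 called, with 23.3% of all genes called. The genes were chosen with earlier results of these data known, so their counts and medians are descriptions beside those of all genes. No test of the genes as a set was made, here or in the comparisons between tissues that follow.

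**Figure D3:**
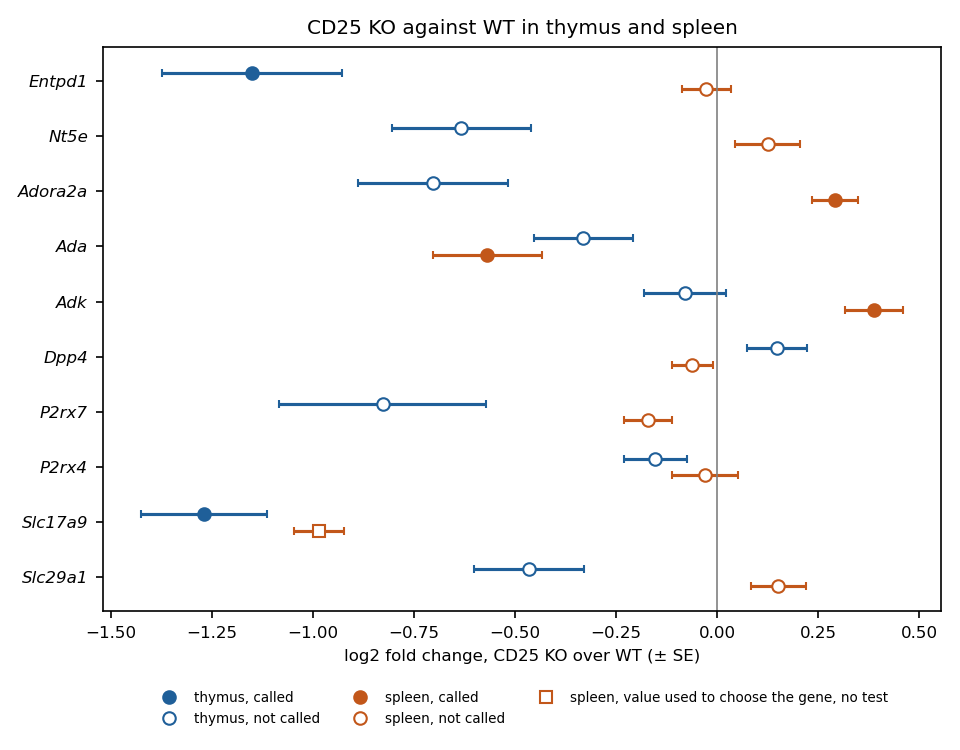
Log2 fold change of CD25 KO over WT (± SE) for each gene in thymus (blue, 5 against 5 mice) and spleen (orange, 4 against 4 mice), filled where the adjusted p was below 0.01. Entpd1 sits at -1.15 in thymus and -0.03 in spleen, and the square marks the splenic value of Slc17a9, for which the gene was chosen.

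Whether the change without CD25 differed between tissues was asked in 1 fit of all 18 libraries. Entpd1 and Adora2a were called, 2 of the 9 genes other than Slc17a9, both with a larger value in spleen than in thymus. Over all 18686 genes tested, 6.98% were called in either direction and 4.50% in this direction. Both calls held in all 25 alternatives, with differences of 1.03 to 1.39 for Entpd1 and 0.89 to 1.15 for Adora2a on the log2 scale. Nt5e, Adk and Slc29a1 were also called when thymic CD25 KO mouse 2 was left out, and Adk and Slc29a1 when thymic CD25 KO mouse 4 was. The mouse left out was among the highest thymic CD25 KO mice for each of these genes, so larger differences were bound to follow. The shares of all genes called in these fits are not given here, and the added calls are a description. For Adora2a the values lay in opposite directions, as every thymic CD25 KO mouse was below and every splenic CD25 KO mouse above its WT mice. The thymic fall by itself was not called (adjusted p 0.0200). The splenic rise by itself was not called in a fit of all 18 libraries (adjusted p 0.254). For Slc17a9 the difference of 0.30 ± 0.18 is a description, with lower levels without CD25 in both tissues. Tissue, age, mouse model, time since the loss of CD25 and the neonatal cell transfer given to thymic CD25 KO mice differ together between the 2 comparisons. The column names also carry 1 date for all splenic libraries and another for all thymic ones, and none of these can be told apart.

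Splenic and thymic WT Tregs were also compared with each other, although age, mouse model, tamoxifen and the date in the column names differ along with the tissue and cannot be told apart from it. Of the 9 genes other than Slc17a9, 7 were called and all were higher in spleen, against 40.4% of all genes tested in either direction and 21.0% higher in spleen. Entpd1 had the largest difference of the 9, with a log2 difference of 2.35 ± 0.16 and an adjusted p of 1.59e-10, as its lowest splenic WT mouse at 54.1 CPM was far above its highest thymic WT mouse at 12.7 CPM. Nt5e followed at 1.25 ± 0.15 (adjusted p 8.24e-07), Adora2a at 1.23 ± 0.14 (adjusted p 5.16e-07), P2rx7 at 1.05 ± 0.21 (adjusted p 0.000286) and Slc29a1 at 0.86 ± 0.11 (adjusted p 3.03e-06). Dpp4 was higher by 0.38 ± 0.06 on the log2 scale (adjusted p 4.37e-05). P2rx4 was higher by 0.27 ± 0.08 with an adjusted p of 0.00994, just inside the threshold, and its adjusted p ran from 0.00450 to 0.0445 over 25 alternatives. The 2 enzymes that consume adenosine were not called, with Ada at -0.25 ± 0.12 (adjusted p 0.106) and Adk at -0.25 ± 0.10 (adjusted p 0.0312, and 0.00884 without thymic CD25 KO mouse 3). Slc17a9, whose splenic WT mice were part of its choice, had a log2 difference of 1.02 ± 0.12, given as a description.

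Placed beside each other, the 6 genes that were at least 1.8-fold higher in splenic than in thymic WT Tregs, which are Entpd1, Nt5e, Adora2a, P2rx7, Slc17a9 and Slc29a1, had thymic log2 fold changes without CD25 of -1.27 to -0.47. The other 4, Ada, Adk, Dpp4 and P2rx4, had thymic log2 fold changes of -0.33 to 0.15. The cut of 1.8-fold was not planned and lies between Slc29a1 at 1.82-fold and Dpp4 at 1.30-fold. Slc17a9 stands in the first group through splenic WT values that were part of its choice. Both sets of values share the thymic WT mice, and no test of the relation was made.

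The thymic CD25 KO mice were not alike. Il2ra was at 280 CPM in CD25 KO mouse 2 and 234 CPM in mouse 4, or 45.6% and 38.1% of the thymic WT mean, and at 95.9 to 105 CPM in the other 3. Mice 2 and 4 were also the highest of the 5 for Entpd1, Adora2a, Adk, P2rx7, Slc17a9 and Slc29a1, and for Foxp3 and Tigit. This order was not found for Ada, Dpp4 and P2rx4. For Prdm1 these mice were the lowest, at 2.35 and 2.12 CPM against 2.55 to 3.10 CPM in the other 3. The share of all genes with mice 2 and 4 highest was not counted. Among the 10 genes P2rx7 showed the widest gap, with 81.4% and 82.7% of the WT mean in mice 2 and 4 and 25.5% to 46.1% in the other 3. Slc17a9 was at 53.2% and 52.3% of the WT mean in mice 2 and 4 and at 31.1% to 36.4% in the others. Nt5e did not follow this order strictly, as mouse 5 with 119 CPM was above mouse 4 with 115 CPM. Without these 2 mice, 6 of the 10 genes were called lower in thymus, Entpd1, Nt5e, Adora2a, P2rx7, Slc17a9 and Slc29a1, while 11.5% of all genes tested were called. Their log2 fold changes were then -1.57, -0.87, -1.10, -1.40, -1.60 and -0.71. Since these 2 mice were the nearest to the WT mice for 5 of the 6 genes, larger changes were bound to follow from leaving them out, and these values are a description. The origin of the higher Il2ra counts in these mice was not tested.

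**Figure D4:**
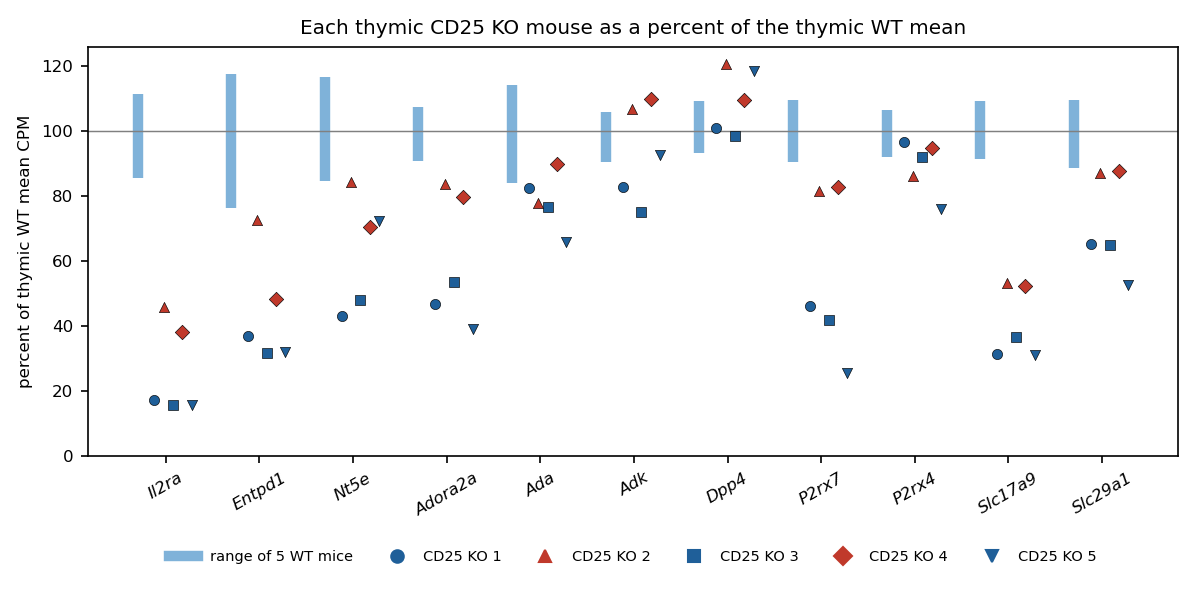
CPM of Il2ra and of each gene in the 5 thymic CD25 KO mice as a percent of the thymic WT mean, with the range of the 5 WT mice as a bar. CD25 KO mice 2 and 4 (red) lie above the other 3 for Il2ra, Entpd1, Adora2a, Adk, P2rx7, Slc17a9 and Slc29a1.

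Genes of effector Tregs moved with genotype as well. Of 6 effector Treg genes (Cd44, Icos, Klrg1, Tigit, Irf4 and Prdm1), 5 were called lower in thymic CD25 KO mice, against 2.99% of all genes, and all 6 were called higher in splenic CD25 KO mice, against 5.90% of all genes. Their summed level was 248 to 284 CPM in thymic WT and 148 to 235 CPM in thymic CD25 KO mice, and 443 to 511 CPM in splenic WT and 692 to 843 CPM in splenic CD25 KO mice. Ccr7, Bcl2 and Ly6c1, which mark central Tregs, were called lower in splenic CD25 KO mice, with log2 fold changes of -0.60, -1.01 and -1.30 (adjusted p 3.49e-05, 3.95e-08 and 0.000142), and had thymic values of -0.01, 0.01 and -0.64 that were not called. The study reports all of these effector and central Treg genes as changed in the same splenic samples. Their splenic directions were therefore known beforehand, and the share of all genes beside them is no test. Their part in the changes of the purinergic genes was not tested.

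Markers of other cells were detected as well, some at or above the CPM of the lower genes of the pathway. Rag1, a marker of immature thymocytes, was at 14.0 to 93.1 CPM in thymic WT and 17.5 to 47.2 CPM in thymic CD25 KO mice, and at 0 in all splenic mice. The 6 genes of that list summed to 66.2 to 175 CPM in thymic WT and 78.2 to 129 CPM in thymic CD25 KO mice, and none was called in thymus. The 6 markers of CD8 T and NK cells summed to 16.7 to 20.4 CPM in splenic WT and 43.6 to 59.4 CPM in splenic CD25 KO mice, which did not overlap, and to 26.2 to 51.0 CPM in thymic WT and 22.8 to 34.7 CPM in thymic CD25 KO mice. Of these, Nkg7, a granule protein of cytotoxic cells, was called higher in spleen, from 11.2 to 34.7 CPM on average, as was Klrb1c, from 1.15 to 4.27 CPM, while Ncr1 was at 0 in all splenic mice. Nkg7 was on average the largest part of the splenic sums. Splenic WT and CD25 KO means were 1.35 and 2.02 CPM for Cd8a, and 0.16 and 0.14 CPM for Klrd1. For Eomes they were 4.49 and 9.05 CPM, and none of Cd8a, Klrd1 and Eomes was called in spleen. The 6 B cell markers summed to 25.6 to 29.5 CPM in splenic WT and 27.4 to 30.5 CPM in splenic CD25 KO mice, with Pax5 called higher, from 1.55 to 3.21 CPM. The 6 myeloid markers summed to 12.04 to 18.96 CPM in splenic WT and 16.8 to 23.3 CPM in splenic CD25 KO mice, with Lyz2 called higher, from 6.18 to 12.6 CPM. No B cell or myeloid marker was called in thymus, and no erythroid or thymic epithelial marker in either tissue. The part of these cells in the changes of the 10 genes was not tested.

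The wider pathway was followed in 9 lists of 93 genes, 92 of them matched, including the 10 described above. Outside the 10, 60 genes of the lists were tested in thymus, and 3 of them (5.0%) were called, close to the 6.16% of all genes tested. Aprt, which salvages adenine, fell by 0.38 on the log2 scale from 24.8 ± 1.43 to 18.8 ± 0.59 CPM (SD, n = 5, adjusted p 0.00245). The cAMP phosphodiesterases Pde7a and Pde4b rose by 0.43 and 0.34, from 97.4 to 130 CPM and from 90.8 to 113 CPM (adjusted p 0.00635 and 0.00367).

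In spleen 61 genes of the lists outside the 10 were tested, with 4 called lower and 8 higher, or 19.7% against 9.45% of all genes tested. The lists were chosen with earlier results of these data known, and this difference was not tested. Among the surface and secreted nucleotidases, Enpp2 and Acpp were called higher and Entpd6 lower. Enpp2, the secreted lysophospholipase autotaxin of the same family as ATP-cleaving ectoenzymes, rose from 1.09 ± 0.08 to 2.64 ± 0.49 CPM (log2 fold change 1.28, adjusted p 0.000307). Acpp, a phosphatase that can act on AMP, rose from 9.05 ± 1.37 to 14.7 ± 0.66 CPM (log2 fold change 0.70, adjusted p 0.000280). Slc29a2, the transporter ENT2, fell from 2.52 ± 0.24 to 1.38 ± 0.11 CPM (log2 fold change -0.86, adjusted p 0.00282). Ampd3, which deaminates AMP, fell by 0.29 on the log2 scale from 33.1 to 26.99 CPM (adjusted p 0.00871).

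Of the 20 genes of the cAMP list, the longest tested, 6 were called higher and 1 lower in spleen, against 5.90% and 3.55% of all genes tested. Their median log2 fold change was 0.07 beside -0.01 over all genes tested. This list too was chosen with earlier results of these data known, and the difference was not tested. Pde3b, a phosphodiesterase, rose by 0.68 on the log2 scale from 19.1 ± 2.93 to 30.5 ± 1.52 CPM (adjusted p 0.000125). Crem, a cAMP-responsive transcription factor, rose by 0.57 from 14.8 ± 1.12 to 21.9 ± 3.65 CPM, and Prkar2a, a regulatory subunit of protein kinase A, rose by 0.38 from 22.9 ± 0.15 to 29.7 ± 3.49 CPM. Prkar1b, another regulatory subunit, fell by 1.51 and was low throughout, at 0.72 and 0.25 CPM. Adora2a was the only adenosine receptor gene of 4 that passed the filter on low counts in either tissue.

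**Figure D5:**
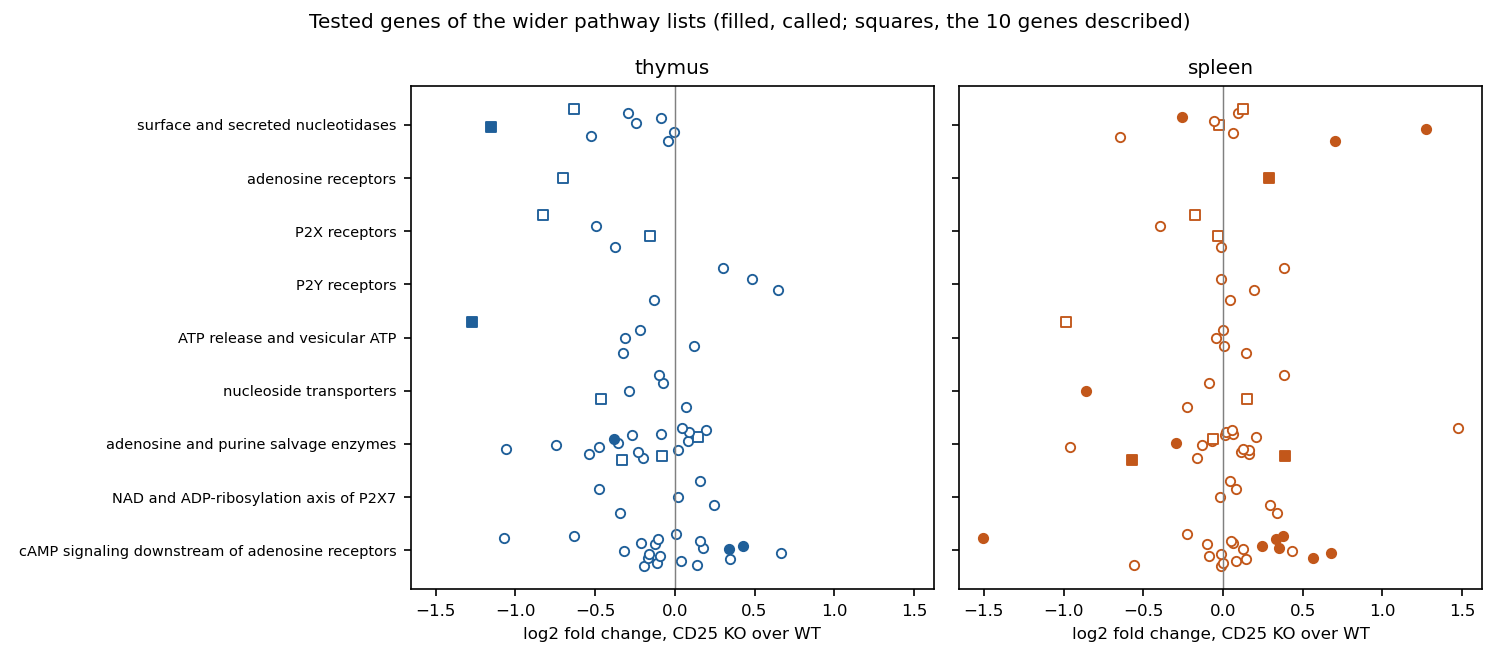
Log2 fold change of CD25 KO over WT for the tested genes of the 9 pathway lists in thymus (left) and spleen (right), with filled symbols for called genes and squares for the 10 genes described. The splenic Slc17a9 square is open because it chose the gene. Outside the 10 the called genes are 3 in thymus (5.0%, against 6.16% of all genes) and 12 in spleen (19.7%, against 9.45%), 7 of the latter in the cAMP list.

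For Entpd1 and Nt5e, the genes with the most similar profile over all 18 libraries were found by the root mean square difference of centred log2 CPM among 12885 candidates. Entpd1 was nearest to Kctd17 (0.22), March3 (0.23) and Golm1 (0.24), while its own SD over the libraries was 1.60. Nt5e was nearest to Pdcd1lg2 (0.19), Fgd6 (0.21) and Rnf216 (0.22). These values describe likeness over groups that differ in tissue and genotype, and no test was made.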

How the data were processed

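The deposited file is a table of raw counts per gene, which the authors made from 75 bp paired-end reads with STAR (2.5.0b) on GRCm38 and featureCounts (1.5.0) on GENCODE M13. Libraries were made from total RNA after removal of ribosomal RNA. Gene symbols and exonic lengths were matched by Ensembl ID to GENCODE M21 for 50376 of 50600 genes. The members and all gene lists were chosen with earlier results of these data known.

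Counts were analysed in R 4.3.3 with edgeR 4.0.16 (TMM scaling, filterByExpr, quasi-likelihood F-test) within thymus and within spleen, and over all 18 libraries for the difference between tissues and for WT spleen against WT thymus. Genes were called at an adjusted p below 0.01, 2-sided. CPM used TMM factors over all libraries, and log2 CPM a prior count of 2. Alternatives were DESeq2 1.42.0, RLE and upper-quartile scaling, no filter or at least 10 counts in every sample, a threshold of 0.05, removal of each library's GC trend, 1 fit of all samples, a replicate block, thymus without CD25 KO mice 2 and 4, and leaving out each mouse. On simulated counts the test was checked with 200 genes changed.

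Named genes were the 10 members in every comparison, Il2ra as a check of the labels, and of each pathway list the called genes outside the members with the largest log2 fold change, at most 3 per direction and tissue. Treg state genes and markers of other cells are given as counts and levels, and some genes and the results that need them are not reported here. P-values measure the spread between mice.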

Additional observations from a re-analysis of the deposited data

Results flagged for a closer look

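Each of the 10 genes was examined for a stray mouse in each of the 4 groups, by the gap of the highest or lowest mouse to its neighbour relative to the range, in 40 groups in all. Chance marks about 1 in 20. In 1 case a mouse stood apart, as splenic WT mouse 1 had 58.0 CPM of Entpd1 while the other 3 splenic WT mice had 54.1 to 54.6 CPM. The splenic log2 fold change of Entpd1 was not called in any of the fits that left out 1 mouse and ran from -0.07 to 0.01.

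The effect of CD25 loss differed between tissues for Entpd1, by 1.13 on the log2 scale with the higher value in spleen, and for Adora2a, by 1.01. Both differences were tested in 1 fit of all libraries. Tissue, age, mouse model, time since deletion, the cell transfer and the date in the column names cannot be told apart.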

How the results depend on the processing

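In thymus 2 of 10 genes were called, where 6.16% of all genes tested were. The count was 5 with DESeq2 (16.3% of all genes), 6 at a threshold of 0.05 (23.3%) and 6 without CD25 KO mice 2 and 4 (11.5%). It was 6 with all 18 samples in 1 fit, where 2881 of 18686 genes were called. When 1 mouse was left out it was 1 to 3, with 371 to 1087 genes called over the whole table. With the replicate number as a block, 1 gene (Slc17a9) and 209 genes over the whole table were called, against 1047 without it. Same-numbered thymic mice did not deviate together, with correlations of -0.24 to 0.14. Only WT mouse 1 correlated best with the CD25 KO mouse of its own number. The numbers follow accession order and gave no sign of a pairing, although 5 correlations cannot exclude one. No fit with a replicate block was made in spleen. In spleen 3 of 9 genes were called, where 9.45% of all genes tested were. The count was 1 with all 18 samples in 1 fit, where 795 of 18686 genes were called. Without 1 mouse it was 1 to 3, with 1099 to 1723 genes called over the whole table. For the difference between tissues, 2 of 9 were called, and 5 at a threshold of 0.05, 5 with DESeq2, 4 with no filter on low counts and 2 to 5 without 1 mouse. Between the WT groups the count of 7 of 9 ran from 6 to 7 without 1 mouse and from 6 to 8 over the other settings. In the main fits of these 2 comparisons, 6.98% and 40.4% of all genes tested were called. Their shares at the other settings are not given here, so a change in these counts is not set against them. A sign changed only for values near 0 that were not called. Dpp4 in thymus went to -0.019 after removal of the GC trend, splenic Entpd1 ran from -0.075 to 0.0087 and splenic P2rx4 from -0.106 to 0.018 without 1 mouse. The thymic log2 fold changes correlated with GC content at a Spearman coefficient of -0.40 over 16945 genes, and those in spleen at -0.17. The causes of these differences were not tested. At this depth Ada and thymic Entpd1, with 63 to 270 counts per library, carry the widest counting error of the 10 genes.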
